A study of Glycine max with 24 samples.

Results

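The comparison described here is between soybean seed of the low protein line LoPro (LoProt in the labels) at stage 4, weighing over 200 to 300 mg, and seed of the same line at stage 3, weighing over 100 to 200 mg. It is the last step of seed fill in that line, and its members are the 6 arrays that the labels give this genotype and these weights, 3 at each stage, out of 24 arrays in the series. LoPro and HiPro (HiProt in the labels) are near-isogenic sister lines. LoPro keeps the cultivated soybean allele in the region of a seed protein locus on linkage group I, where HiPro carries an allele from wild soybean, Glycine soja. The remaining arrays are HiPro seed at stages 4 and 3 and seed of both lines at stage 2 (over 50 to 100 mg) and stage 1 (25 to 50 mg), with 3 arrays in each group. All plants grew in growth chambers, in field soil with a Bradyrhizobium japonicum inoculant and fertilizer. Each replicate is seed pooled from 3 plants. All 4 weight classes of a replicate were taken from the same plants at the same harvest, so a stage is a class of seed size on 1 set of plants. LoPro is thus represented by 1 line and 3 pools of plants.

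During seed fill the cotyledons of a legume embryo expand and load storage protein and oil. Glycinin and beta-conglycinin are the main storage globulins of soybean, oleosins coat the oil bodies, and Kunitz and Bowman-Birk inhibitors add to the protein reserve. Cell division is largely over before filling, wall loosening and water uptake go with expansion, and the green embryo keeps chloroplasts for much of this period. Late embryogenesis abundant (LEA) and other maturation proteins follow towards the dry seed.

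The values are MAS5 signals of the Affymetrix soybean array on a linear scale, and changes are stage 4 minus stage 3 on the log2 scale. A probeset was called higher or lower where limma gave a p, adjusted over 37694 soybean probesets, under 0.05 and the change was at least 1.5-fold. The fit used all 24 arrays with the plant pool as a block. Each array was scaled to the same trimmed mean, so a change is relative to the rest of the array. The median change over all probesets was 0.009 in LoPro. Median signals lay between 210.2 and 222.5 at stage 4 and between 215 and 221 at stage 3. Across probesets, arrays of one stage correlated at 0.945 to 0.956 at stage 4 and at 0.941 to 0.951 at stage 3. The 3′ minus 5′ log2 signal of soybean control pairs, a measure of RNA integrity, averaged 1.95, 1.94 and 2.06 over 4 pairs at stage 4, against 2.17, 2.01 and 2.12 at stage 3. A ubiquitin pair was left out of this mean after its values were seen, because its 5′ probeset read at most 12.3 on all 6 arrays. With it, as planned, the mean of 5 pairs went the other way, 2.30 at stage 4 against 2.21 at stage 3. An exact permutation test over arrays gave p = 0.8 for these 5 pairs, where the smallest possible p is 0.1. The sucrose-binding protein pair did not overlap, with 1.372, 1.359 and 1.495 at stage 4, against 1.961, 1.522 and 1.763 at stage 3. The part of RNA integrity in the results was not tested.

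Some transcripts of wall proteins, lipid transfer proteins, protease inhibitors, water channels and chloroplast proteins were lower at stage 4 than at stage 3, while the abundant transcripts for storage protein and oil gave no call in either direction. Of 37694 probesets, 29 were higher and 111 lower at stage 4, which is 0.0769% and 0.294%, or 0.371% together. An unadjusted p under 0.05 was found for 2506 higher and 2456 lower. Among the 111, the change ran between -4.69 and -0.59 with a median of -1.23, and 25 fell at least 4-fold. Among the 29, it ran between 0.59 and 3.96 with a median of 0.92, and 6 rose at least 4-fold. The 3 arrays of each stage did not overlap for 106 of the 111 and 27 of the 29, where 6.76% of all probesets were lower and 8.06% higher without overlap. Whole seed holds embryo, seed coat and remnants of other tissue, and in such samples fewer cells of a type and less RNA per cell cannot be told apart.

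The number of calls depends on the pools and the model. Without the block, 13 were higher and 51 lower, and 13 and 50 of these are among the 29 and 111. Without pool 1, none were higher and 1 lower, without pool 2 none and 6, and without pool 3, 30 and 151. Omitting single arrays gave 0 to 92 higher and 5 to 209 lower, with the fewest in total without the stage 3 array of pool 1 (3 and 5) and without the stage 4 array of pool 1 (0 and 11). With the 6 arrays alone, or with an unmoderated test of each probeset as in the methods, no probeset was called, and with the 12 LoPro arrays 2 and 8 were. With all 24 arrays but no trend of the spread with mean signal, 0 were higher and 2 lower. The calls below thus rest on a spread estimated over all 24 arrays and on its trend with signal.

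**Figure D1:**
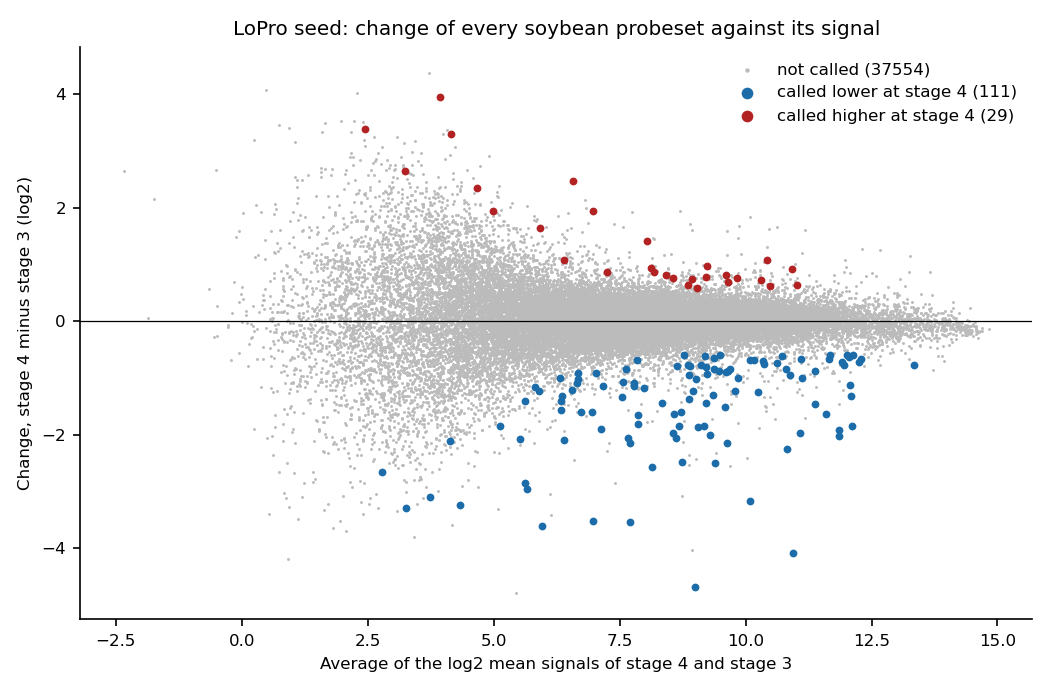
Change from stage 3 to stage 4 in LoPro (vertical axis, log2) against the average log2 signal of both stages (horizontal axis), 1 point for each soybean probeset. The 111 probesets called lower (blue) reach down to -4.69 and the 29 called higher (red) up to 3.96, while probesets of the highest signal lie near 0.

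Abundant transcripts of the seed's reserves gave no call between the stages. The highest mean signal at stage 4 belonged to P34, a seed vacuolar protein of the cysteine protease family. It read 29632, 26418 and 26795 at stage 4, against 27260, 34143 and 30307 at stage 3, and its change of -0.14 (95% interval -0.48 to 0.20, adjusted p = 0.776) did not pass. KTI1, described as a Kunitz trypsin inhibitor, read 26831, 24161 and 25464 at stage 4, against 26077, 29804 and 27064 at stage 3. The interval of its change was -0.46 to 0.23. In both genes the stage 4 arrays lie within or below the range of the stage 3 arrays.

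The beta chain of beta-conglycinin was read by several probesets. The one of highest stage 4 signal, CG-BETA-1, gave 25147, 24114 and 24010 at stage 4, against 17748, 24269 and 20721 at stage 3. Its change was 0.24 with a wide interval, -1.99 to 2.47. The fit takes the spread from all stages, and at stage 1 this probeset read 2416, 332 and 6.28. GY2, glycinin G2, read 24654, 22270 and 24041 at stage 4, against 24253, 30020 and 26722 at stage 3, with an interval of -0.55 to 0.17, and a probeset described as glycinin G4 had a change of -0.02 and an interval of -0.60 to 0.55. The symbols LOC100797606 and LOC100306228 complete the 6 genes of highest stage 4 signal. Their changes were -0.17 and -0.18, with adjusted p of 0.725 and 0.723. Signals of this size lie at the top of the range measured, and whether they were near saturation was not tested.

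Over the whole list of storage proteins, 0 of 24 probesets were called in either direction (none lower and 2 higher at an unadjusted p under 0.05), the median change was -0.08, and 15 of 24 changes lay below 0 (48.6% of all probesets did). In the step before, stage 3 against stage 2, 12 of these 24 were called higher (5.86% of all probesets were), with a median change of 0.75. Both steps use the stage 3 arrays. The summed signal of the list was 368000 to 409100 at stage 4, against 369300 to 440000 at stage 3. The basic 7S globulin BG7S-2, chosen after its values were seen, differed from the rest of the list. It read 3378, 1704 and 1236 at stage 4, against 412, 783 and 484 at stage 3, with no overlap and a change of 1.84, but its adjusted p of 0.135 did not pass.

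Oil genes gave no call either. Of 6 oil body probesets none were called (1 higher and none lower at an unadjusted p under 0.05), and the median change was 0.08. An oleosin probeset read 17187, 15429 and 15832 at stage 4, against 13981, 17677 and 16334 at stage 3, with an interval of -0.35 to 0.38. A second had an interval of -0.31 to 0.30. None of 28 probesets of fatty acid and oil synthesis were called (2 lower at an unadjusted p under 0.05), with a median of -0.03. FAD2-1A, the seed oleate desaturase, read 22501, 19949 and 20922 at stage 4, against 22223, 25260 and 22956 at stage 3. SACPD-C, a stearoyl-ACP desaturase, had a change of -0.13 with an interval of -0.46 to 0.21. For starch and sucrose metabolism 0 of 34 were called, with 1 higher and 2 lower at an unadjusted p under 0.05. SWEET24, of a family of sugar exporters, had a change of 0.002 (interval -0.29 to 0.29), and sucrose synthase SS one of -0.28 (interval -0.55 to -0.01). The seed lipoxygenases LOX1.1 and LOX3 had intervals of -0.84 to 0.50 and -0.51 to 0.21, and none of 22 lipoxygenase probesets were called (6 lower at an unadjusted p under 0.05). Adjusted p-values of these named genes lay between 0.353 and 0.998.

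Maturation proteins leaned above 0 without passing the test. Of 43 probesets for LEA and seed maturation proteins, 32 had a change above 0 (51.4% of all probesets did), the median was 0.25 and 7 were higher at an unadjusted p under 0.05, but 0 were called. The median by pool was 0.59, 0.23 and 0.04 in pools 1, 2 and 3. In the preceding step 27 of the 43 were called higher (5.86% of all probesets). The brightest were PM30, which had a change of -0.08 (interval -0.43 to 0.26), and PGMPM19, with -0.13 (interval -1.28 to 1.02). Further down in signal, and chosen after their values were seen, the seed maturation gene PM1 read 7807, 5323 and 4680.1 at stage 4, against 2257, 3078 and 2928 at stage 3 (adjusted p = 0.129). The LEA gene SLE2 read 3834, 1714 and 1258 at stage 4, against 826, 1079.8 and 603 at stage 3 (adjusted p = 0.457). In both the arrays did not overlap, and the stage 4 array of pool 1 stood highest. PM31, chosen in the same way, read 21783, 16743 and 12954 at stage 4, against 7839, 14295 and 7032 at stage 3. Its stages overlap. Among chaperones, 0 of 54 were called (16 lower and 2 higher at an unadjusted p under 0.05). The small heat shock protein LOC100500475 read 21233, 14511 and 8835 at stage 4, against 7739, 7998 and 4032 at stage 3 (change 1.15, adjusted p = 0.517), and HSP90-1 had a change of -0.33 (adjusted p = 0.28).

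Proline-rich cell wall proteins were among the decreases. Proline-rich proteins are structural proteins that become cross-linked into the cell wall. LOC100786014, one of them, read 33.7, 8.50 and 61.0 at stage 4, against 816, 512 and 64.4 at stage 3. It fell by 3.53 (standard error 0.67, adjusted p = 0.0263), and the stage 3 array of pool 3 was already near the stage 4 level. A further 5 probesets described as repetitive proline-rich cell wall protein 1 were called lower. The one without a suffix for several transcripts read 1358, 1529 and 2189 at stage 4, against 14621, 6798 and 3089 at stage 3. It fell by 2.03 (standard error 0.34, adjusted p = 0.0164), and the order of the pools at stage 3, with pool 1 highest and pool 3 lowest, was that of LOC100786014. The other 4 fell by 2.26, 1.92, 1.85 and 1.12. The last 2 were chosen after their values were seen, and the last did not pass without the block (adjusted p = 0.108). These 4 are of the kinds that match more than 1 transcript, so they may read the same RNA and are not separate measurements. In all, 7 of 79 cell wall probesets were lower and 0 higher, which is 8.86% against 0.371% of all probesets. Most of these calls are of proline-rich proteins, so the share may count the same RNA more than once. The list's median change was -0.10. Its 26 members found by symbol alone had a median of -0.06, and none were called. The others were found by descriptions in the study's additional files, which name probesets that the study chose on these arrays. For this list and those below, shares of calls set beside all probesets are therefore not independent evidence. The remaining call, chosen after its values were seen, was a pectinesterase (LOC100816503), an enzyme that demethylates wall pectin. It read 102, 117 and 242 at stage 4, against 283, 218 and 455 at stage 3 and fell by 1.09 (standard error 0.22, adjusted p = 0.0355; without the block, adjusted p = 0.275), although the arrays overlap.

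Lipid transfer proteins carry lipids in the apoplast and are linked to the cuticle. All 7 probesets of this list had a change below 0 (48.6% of all probesets did), with a median of -1.04. Of these, 4 were called, which is 57.1% against 0.371% of all probesets. All members were found by descriptions in the study's additional files and none by symbol. Those files name probesets that the study chose on these arrays, so these counts are not independent evidence of the list's direction. LOC100306409 read 24.6, 39.8 and 118 at stage 4, against 1457, 382 and 328 at stage 3. It fell by 3.54 (standard error 0.52, adjusted p = 0.0116), and every stage 3 array was above every stage 4 array. LOC100306062, described as lipid transfer protein 1, read 7.49, 9.24 and 46.2 at stage 4, against 169, 120.5 and 74.0 at stage 3. It fell by 2.96 (standard error 0.44, adjusted p = 0.0131), and a second probeset with this description fell by 1.90 (standard error 0.33, adjusted p = 0.0167). At a higher level, a putative lipid transfer protein read 3187, 2569.6 and 3347 at stage 4, against 6127, 4936 and 4557 at stage 3 and fell by 0.78 (standard error 0.16, adjusted p = 0.0397). Without the block the last 2 did not pass (adjusted p = 0.0989 and 0.082).

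The largest fall of a named gene was that of LOC100800142, described as a fragment of glucosyltransferase-13. It read 73.1, 26.7 and 230.2 at stage 4, against 3967, 844 and 2326 at stage 3, so every stage 4 array was far below every stage 3 array. It fell by 4.69 (standard error 0.49, adjusted p = 0.000924), which is 25.9-fold. A disease resistance-responsive family protein, LOC100305909, read 21.5, 3.86 and 33.3 at stage 4, against 343, 138 and 107 at stage 3. It fell by 3.61 (standard error 0.52, adjusted p = 0.0116). Both were far brighter in the youngest seed. In LoPro at stage 1 the first read 12388, 7613 and 7381, and the second 8366, 7016 and 10034. A probeset described as phi-1, a name first given to a phosphate-induced tobacco gene, read 140.2, 59.3 and 141 at stage 4, against 1149, 440.1 and 496 at stage 3. It fell by 2.58 (standard error 0.28, adjusted p = 0.000924).

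Several enzymes were lower too. Strictosidine synthase, known for its role in alkaloid synthesis in other plants, was the description of a pair of probesets. The brighter read 169, 259 and 397 at stage 4, against 2793, 966 and 1166 at stage 3 and fell by 2.50 (standard error 0.36, adjusted p = 0.0116), and the other fell by 2.49 (standard error 0.43, adjusted p = 0.0167). LOC100815273, of the GDSL lipases, read 42.7, 33.0 and 33.0 at stage 4, against 378, 72.8 and 133 at stage 3. It fell by 2.10 (standard error 0.34, adjusted p = 0.0159), which did not pass without the block (adjusted p = 0.105). An aspartyl protease family protein, LOC100809988, read 201, 189 and 449 at stage 4, against 1506, 655 and 847 at stage 3 and fell by 1.87 (standard error 0.29, adjusted p = 0.0135). It was the sole call among 30 probesets of proteases and autophagy (3.33%, against 0.371% of all probesets). There CP3, a cysteine protease of high signal, had a change of -0.16 (adjusted p = 0.713).

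Among 29 protease inhibitor probesets, 3 were lower and 0 higher (10.3%, against 0.371% of all probesets), and none of the 9 found by symbol were called. Cystatins inhibit cysteine proteases. The cystatin LOC100801232 read 85.6, 259.5 and 330.1 at stage 4, against 1131, 504 and 605 at stage 3 and fell by 1.85 (standard error 0.39, adjusted p = 0.0402). A second probeset of this gene, chosen after its values were seen, fell by 1.63 (standard error 0.30, adjusted p = 0.0218), and the subtilisin inhibitor LOC100305872 read 72.6, 121 and 181 at stage 4, against 624, 301 and 371 at stage 3 and fell by 1.82 (standard error 0.31, adjusted p = 0.0167). These are not the abundant inhibitors of the protein reserve: KTI3 and BBI, the Kunitz and Bowman-Birk inhibitors, had a change of -0.23 and -0.20 with adjusted p of 0.615 and 0.692 (chosen after their values were seen). Without the block the first cystatin probeset had an adjusted p of 0.0519.

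**Figure D2:**
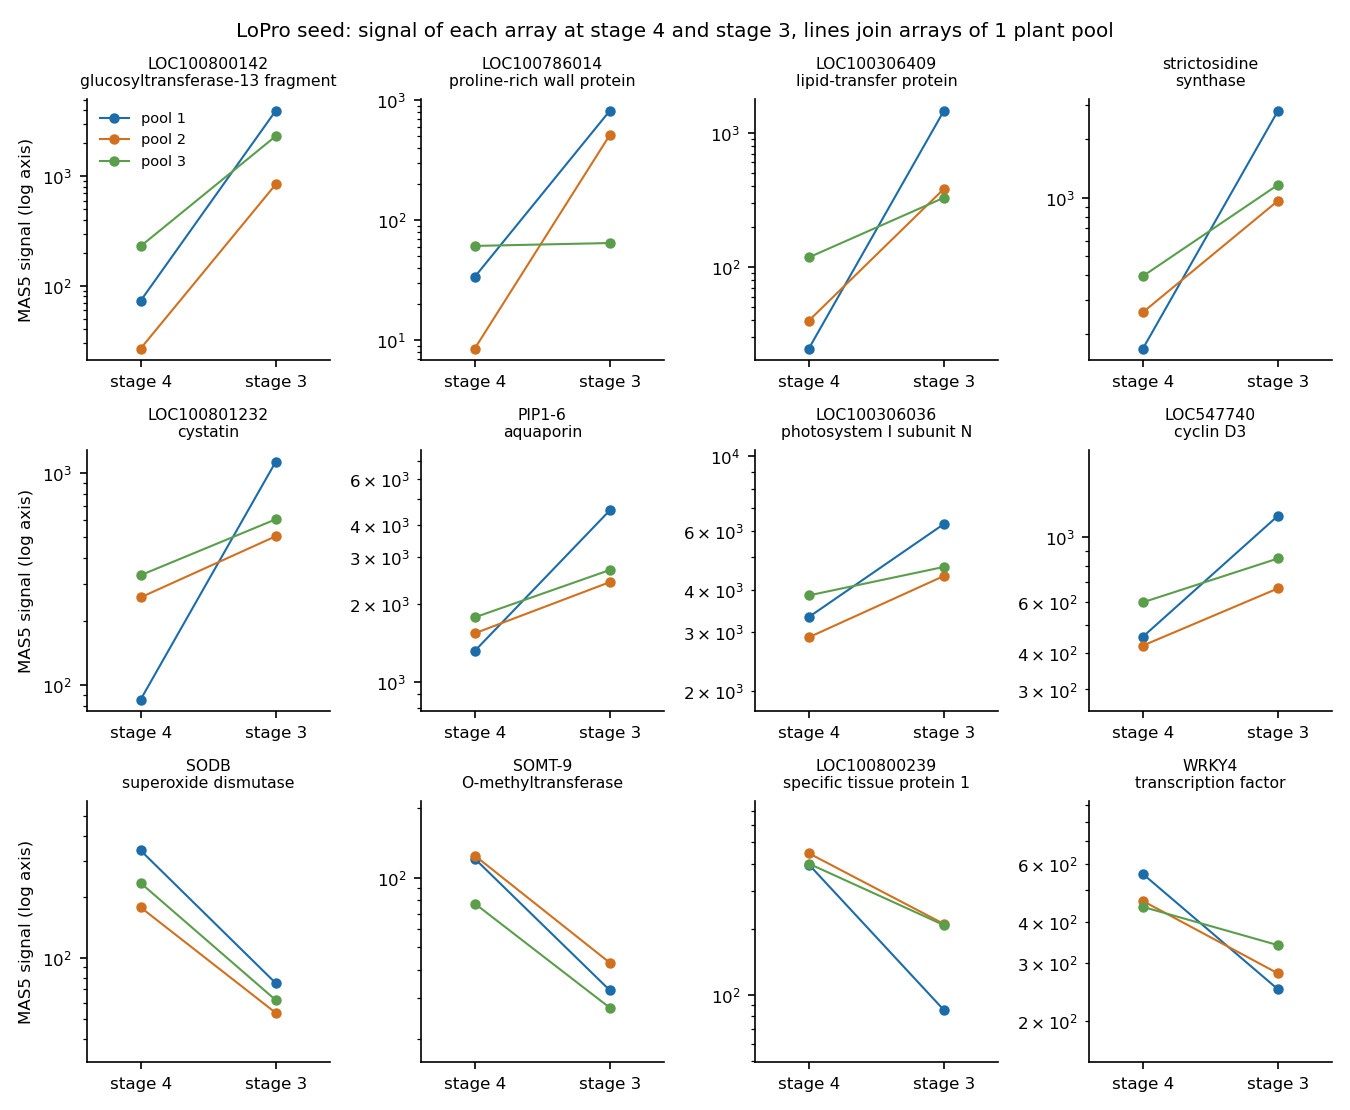
MAS5 signal (vertical axis, log scale) of 12 named probesets in the LoPro arrays at stage 4 (left in each panel) and stage 3 (right), with a line for each of the 3 plant pools. The upper 8 panels show probesets called lower at stage 4 and the bottom row probesets called higher, and in LOC100786014 pool 3 is nearly flat (61.0 at stage 4, against 64.4 at stage 3).

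Some chloroplast transcripts were lower as well. Of 68 photosynthesis probesets, 5 were lower and 0 higher (7.35%, against 0.371% of all probesets), and the median change was -0.21. At an unadjusted p under 0.05, 31 were lower and 4 higher, against 2456 and 2506 of all 37694 probesets. None of the 29 found by symbol were called. Their median change was -0.01, with 8 lower and 1 higher at an unadjusted p under 0.05. The others were found by descriptions in the study's additional files. The oxygen-evolving enhancer proteins sit on photosystem II, where water is split. A probeset for one of them read 3549, 3928 and 3940.5 at stage 4, against 7355, 5919.9 and 5607 at stage 3 and fell by 0.72 (standard error 0.12, adjusted p = 0.0159). A second probeset with this description fell by 0.73 (standard error 0.12, adjusted p = 0.0159), and a probeset for oxygen-evolving enhancer protein 1, LOC100792252, by 0.60 (standard error 0.13, adjusted p = 0.0482). The last was chosen after its values were seen and did not pass without the block (adjusted p = 0.297). LOC100306036, subunit N of photosystem I, read 3316, 2885 and 3846 at stage 4, against 6278, 4395 and 4677 at stage 3. It fell by 0.60 (standard error 0.12, adjusted p = 0.0337), lost without the block (adjusted p = 0.189). Protochlorophyllide reductase (LOC100785637), an enzyme of chlorophyll synthesis, read 2182, 2645 and 3205 at stage 4, against 4083, 3858 and 4067 at stage 3 and fell by 0.60 (standard error 0.10, adjusted p = 0.0173). Outside the list and chosen after its values were seen, LOC732571, the B subunit of chloroplast glyceraldehyde-3-phosphate dehydrogenase, fell by 0.76 (standard error 0.13, adjusted p = 0.0173). For each of these 6 probesets the 3 arrays of stage 4 lay below the 3 of stage 3 (6.76% of all probesets did). The rule for naming required this of those not chosen after their values were seen.

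Aquaporins are water channels of the plasma membrane (PIP) and vacuole (TIP). PIP1-6 read 1319, 1539.6 and 1771 at stage 4, against 4535, 2414 and 2686 at stage 3 and fell by 1.01 (standard error 0.16, adjusted p = 0.0159). A second major intrinsic protein, LOC100805635, chosen after its values were seen, read 198, 280.5 and 663 at stage 4, against 1024, 663 and 1105 at stage 3 and fell by 1.45 (standard error 0.31, adjusted p = 0.0499; without the block, adjusted p = 0.241), and its arrays overlap. Other channels of far higher signal gave no call. PIP1-7 had a change of -0.08 (adjusted p = 0.896), and a major intrinsic protein probeset one of -0.09 (adjusted p = 0.855). In total 2 of 110 transporter and water channel probesets were lower and 0 higher (1.82%, against 0.371% of all probesets).

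Of 38 cell division probesets 1 was lower (2.63%, against 0.371% of all probesets called). This was cyclin D3 (LOC547740), which promotes entry into the cell cycle. It read 456, 425 and 598 at stage 4, against 1187, 668 and 846 at stage 3 and fell by 0.85 (standard error 0.18, adjusted p = 0.0407; without the block, adjusted p = 0.179). The list's median was -0.27 and 14 were lower at an unadjusted p under 0.05. The histone H2B genes LOC100817849 and LOC100499734 had a change of -0.34 and -0.11 (adjusted p = 0.197 and 0.662). An isoflavone reductase homolog read 269, 332 and 690.1 at stage 4, against 1084, 766 and 1108 at stage 3 and fell by 1.30 (standard error 0.20, adjusted p = 0.0135; without the block, adjusted p = 0.144). It was the sole decrease among 94 flavonoid and phenylpropanoid probesets, of which 2.13% were called in either direction (0.371% of all probesets). The transcription factor NAC6 read 79.3, 65.3 and 76.1 at stage 4, against 178, 117 and 129 at stage 3, a fall of 0.92 (standard error 0.18, adjusted p = 0.0323; without the block, adjusted p = 0.108).

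Of the 111 decreases, 44 carry neither a gene symbol nor a description. A pair of them, picked for depth and brightness after the values were seen, is given here. The first read 121, 161 and 1709 at stage 4, against 8643, 3702 and 5079.8 at stage 3 and fell by 4.09 (standard error 0.62, adjusted p = 0.0135). The second read 145, 343 and 633 at stage 4, against 5240, 1939.6 and 2288 at stage 3 and fell by 3.18 (standard error 0.40, adjusted p = 0.00355).

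The increases were fewer and shared no list. Of the 29, 17 were under 2-fold, 14 had neither symbol nor description, and 6 stayed under a mean signal of 100 at stage 4. SODB, an iron superoxide dismutase of plastids, led those named by rule. It read 338, 177 and 234 at stage 4, against 75.1, 53.6 and 62.0 at stage 3 and rose by 1.94 (standard error 0.36, adjusted p = 0.0239). Without the block it did not pass (adjusted p = 0.122). SOMT-9, an O-methyltransferase, read 121, 125 and 77.3 at stage 4, against 32.5, 42.8 and 27.3 at stage 3 and rose by 1.65 (standard error 0.28, adjusted p = 0.0167). It was the sole increase in the flavonoid and phenylpropanoid list, where 16 were higher and 9 lower at an unadjusted p under 0.05.

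LOC100800239, described as specific tissue protein 1, read 396, 446 and 399.9 at stage 4, against 85.4, 212 and 209 at stage 3 and rose by 1.41 (standard error 0.27, adjusted p = 0.0263). In pool 1 its stage 3 signal was less than in the other pools. LOC100786578, a homolog of pinoresinol-lariciresinol reductase from lignan synthesis, read 497, 355 and 312 at stage 4, against 202, 185 and 209 at stage 3 and rose by 0.94 (standard error 0.16, adjusted p = 0.0167). The transcription factor WRKY4 read 558, 462 and 443 at stage 4, against 249.5, 279 and 339 at stage 3 and rose by 0.76 (standard error 0.15, adjusted p = 0.0291). With NAC6 it was 1 of 2 calls among 472 transcription factor probesets (0.424%, close to the 0.371% of all probesets).

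PSK3, a precursor of the growth peptide phytosulfokine, read 3176, 2668 and 1951 at stage 4, against 1394, 1826 and 1706 at stage 3 and rose by 0.64 (standard error 0.14, adjusted p = 0.043). The remaining 5 named by rule have a symbol but no stated function here. LOC100805858 was the brightest of them and read 2305, 1419 and 1210.1 at stage 4, against 1090.2, 1173 and 684 at stage 3, and it rose by 0.73 (standard error 0.14, adjusted p = 0.0308). LOC100811916 rose by 0.69, LOC100786430 by 0.87, LOC100806307 by 0.59 and LOC100796533 by 1.08, with adjusted p between 0.0263 and 0.0355. For all 11 increases named by rule the lowest stage 4 array was above the highest stage 3 array, because the rule required it. Of all probesets, 8.06% were higher without overlap. Besides SODB, PSK3, LOC100805858, LOC100811916, LOC100806307 and LOC100796533 did not pass without the block (adjusted p between 0.0725 and 0.45).

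Pools differed in how far they moved. Over the 111 decreases the median change was -1.78 in pool 1, -1.01 in pool 2 and -0.68 in pool 3, and each of the 111 was lower at stage 4 in every pool. At stage 3 the array of pool 1 was the highest for 95 of the 111, and at stage 4 the array of pool 3 was the highest for 87. The median signal of the 111 was 198, 280 and 381 in pools 1, 2 and 3 at stage 4, against 1090, 626 and 689 at stage 3. For the 29 increases the pools lay closer, with medians of 1.19, 0.94 and 0.82 and stage 4 signals of 497, 446 and 443, against 249, 223 and 288 at stage 3.

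**Figure D3:**
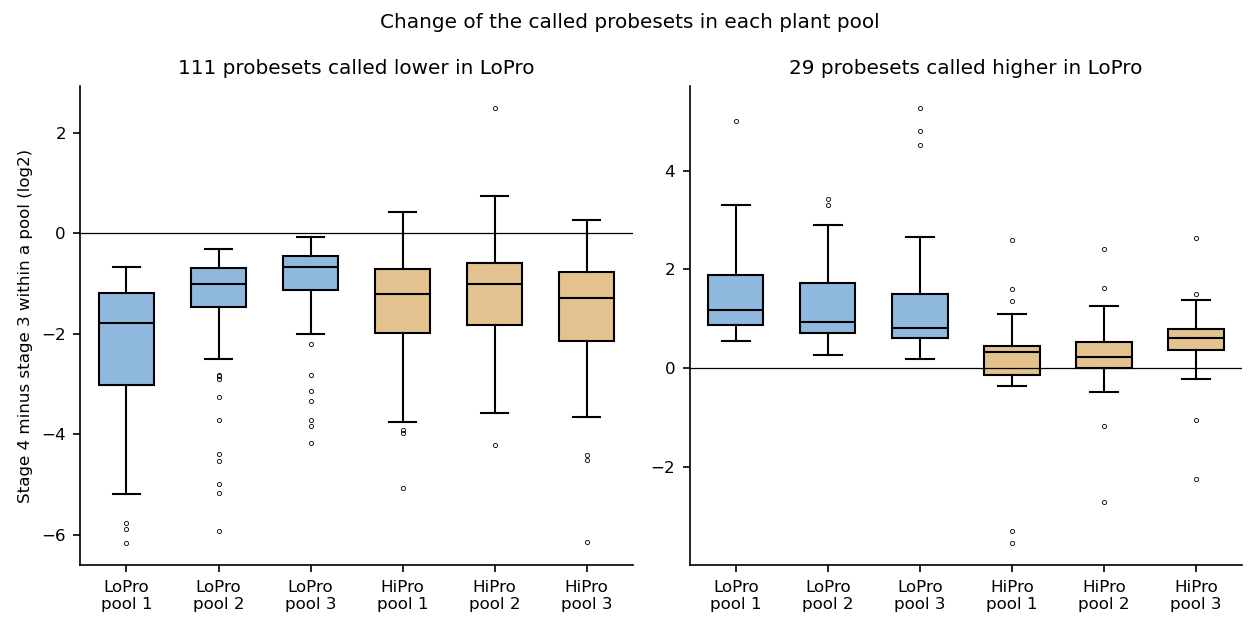
Change from stage 3 to stage 4 within each plant pool (vertical axis, log2) for the 111 probesets called lower in LoPro (left) and the 29 called higher (right). Boxes span the quartiles with the median as a line, whiskers reach 1.5 times the box and points lie beyond them. In LoPro (blue) the medians for the decreases run over -1.78, -1.01 and -0.68. HiPro (tan) arrays do not enter the LoPro changes, but they enter the spread that the calls rest on.

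Seen over all stages of LoPro, most of the decreases had their highest level in the smallest seed. The median over the 111 of the mean log2 signal was 11.0 at stage 1, 10.8 at stage 2, 9.51 at stage 3 and 8.27 at stage 4. The highest stage was stage 1 for 80 of them, stage 2 for 27 and stage 3 for 4. The 111 were chosen for stage 4 below stage 3, so stage 4 could not be their highest. Between stages 1 and 2, which share no array with the last step, 81 of the 111 (73.0%) had a change below 0, where 51.1% of all probesets did. The step to stage 3 held more calls. In stage 3 against stage 2, 2208 probesets were higher and 2173 lower (5.86% and 5.76%), where the last step has 29 and 111. The median change of the 111 in that step, which shares the stage 3 arrays, was -1.02. The 29 increases behaved otherwise. Their median log2 signal was 7.94, 8.45, 8.004 and 8.82 at stages 1 to 4. Stage 4 was the highest stage for 27 of them, and the lowest was stage 1 for 14 and stage 3 for 12. The 29 were chosen for stage 4 above stage 3, which favours a high stage 4 and a low stage 3. Between stages 1 and 2, 23 of the 29 (79.3%) had a change above 0, where 48.9% of all probesets did.

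Single genes differed in their course. The same probeset of proline-rich cell wall protein 1 read 26900, 20921 and 17642 at stage 1 and 20982, 23213 and 18178 at stage 2. LOC100306409 read 3473, 2769 and 3303 at stage 1 and 4492, 3359 and 4016 at stage 2, so its level was kept until stage 2. WRKY4 read 435, 372 and 323 at stage 1 and 411, 382 and 352 at stage 2, all below its lowest stage 4 array. SODB read 392, 101 and 171 at stage 1 and 187, 96.1 and 107 at stage 2, so stage 3 was its low point. LOC100800239 read 33.1, 26.7 and 25.7 at stage 1 and 36.4, 72.2 and 55.5 at stage 2 and was higher at each later stage.

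**Figure D4:**
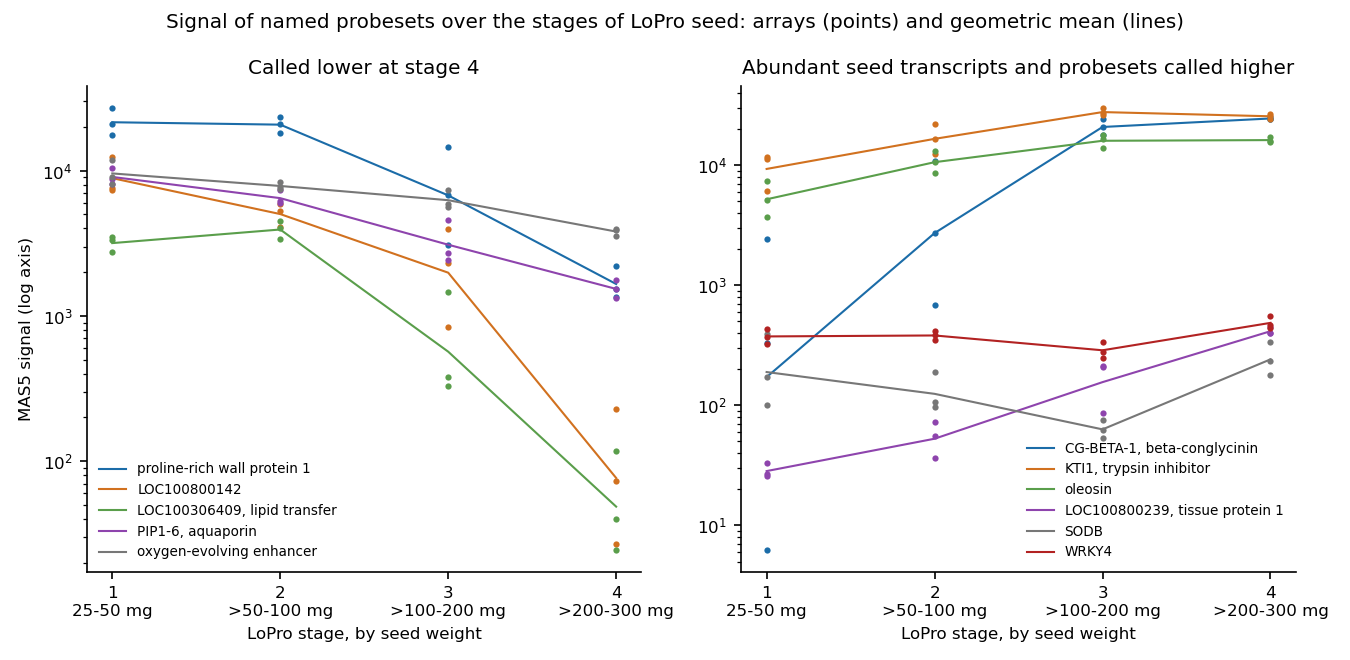
MAS5 signal (vertical axis, log scale) of named probesets over the 4 LoPro seed weight classes, with points for the 3 arrays of a stage and lines through their geometric means. On the left are 5 probesets called lower at stage 4, and on the right 3 abundant seed transcripts, nearly level over stages 3 and 4, with 3 probesets called higher.

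The same step in HiPro was measured on other arrays. These do not enter the LoPro changes, but they enter the spread behind the LoPro calls, so the lists are not fully independent. There 57 probesets were higher and 428 lower (0.151% and 1.14%, or 1.29% together; 5 and 188 without the block). Without HiPro pool 1 these counts were 8 and 106, without pool 2 39 and 214, and without pool 3 6 and 77. Of the 111 LoPro decreases, 108 (97.3%) had a change below 0 in HiPro, where 48.5% of all probesets did, and 93 did so without overlap of the HiPro arrays (6.59% of all probesets). In HiPro 82 of the 111 were called lower, which is 73.9% of the LoPro list and 19.2% of the 428. The median HiPro change of the 111 was -1.16. LOC100800142 read 198, 229 and 107 in HiPro at stage 4, against 3119, 813 and 2257 at stage 3, a change of -3.40 (adjusted p = 0.00242). LOC100786014 had a change of -5.13 there (adjusted p = 0.000964), LOC100306409 one of -3.01 (adjusted p = 0.00646) and PIP1-6 one of -0.96 (adjusted p = 0.0058). The photosystem I subunit LOC100306036 had a change of -0.41 in HiPro and was not called (adjusted p = 0.0993).

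For 28 of the 29 increases the absolute change was larger in LoPro than in HiPro. In HiPro 27 of the 29 (93.1%) had a change above 0, where 51.5% of all probesets did, but 3 were called higher, which is 10.3% of the LoPro list and 5.26% of the 57. The median HiPro change was 0.33. LOC100800239 was 1 of the 3, with 266, 300.1 and 365 at stage 4, against 128, 131 and 139.9 at stage 3 (change 1.21, adjusted p = 0.0268). SODB had a change of 0.23, SOMT-9 one of 0.02 and WRKY4 one of 0.05 in HiPro, with adjusted p of 0.836, 0.986 and 0.921. The members were chosen for a large change in LoPro, so a smaller one in the other line is no test of a difference.

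That difference was tested for every probeset as the LoPro step minus the HiPro step. None passed (0 of 37694; 1808 at an unadjusted p under 0.05, and the lowest adjusted p was 0.121). Without the block 1 did. The lowest adjusted p belonged to a probeset without a name, chosen after its values were seen, which was called in both lines in opposite directions. It read 67.7, 56.1 and 40.7 in LoPro at stage 4, against 7.93, 7.55 and 19.5 at stage 3. In HiPro it read 5.64, 6.57 and 25.4 at stage 4, against 65.7, 43.1 and 52.5 at stage 3. All 12 signals were dim.

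**Figure D5:**
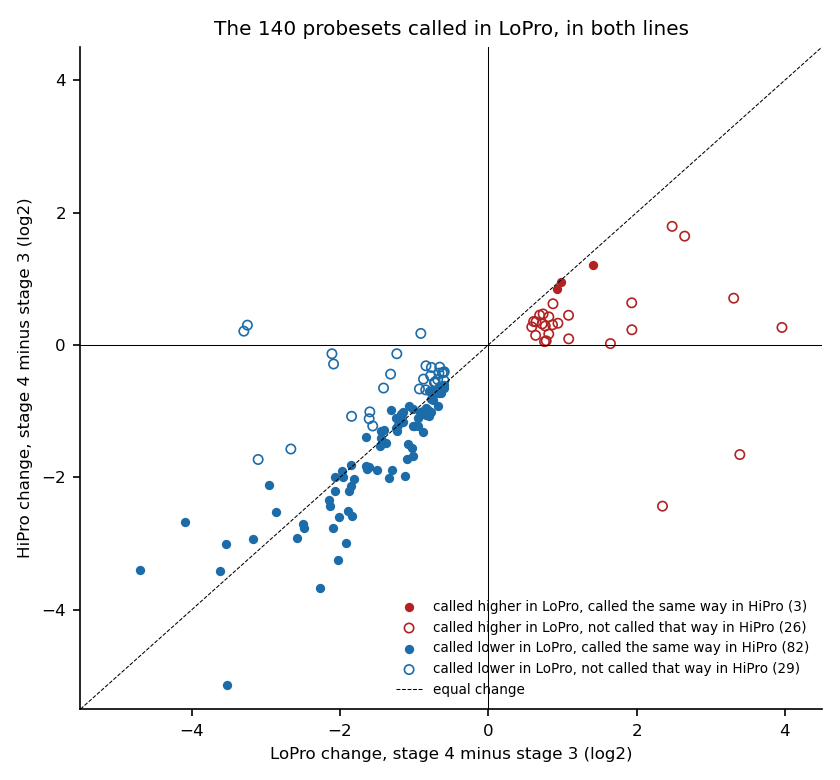
Change from stage 3 to stage 4 in HiPro (vertical axis, log2) against that in LoPro (horizontal axis, log2) for the 140 probesets called in LoPro, red for higher and blue for lower. Filled points were called in the same direction in HiPro (3 of 29 and 82 of 111), open points were not, and the dashed line marks equal change.

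Markers of embryo and seed coat, and of pod wall, leaf and nodule, which are not parts of the seed, were read too. None of the embryo's 24 storage protein probesets had a mean under 50. Among 6 seed coat markers 0 were called. The seed coat BURP protein SCB1 read 7225, 9692 and 13589 at stage 4, against 18575, 17187 and 18198 at stage 3 (change -0.87, adjusted p = 0.0947) without overlap. Without the stage 4 array of pool 3 its change was -1.18 and passed (adjusted p = 0.0208). The hydrophobic seed protein HPS read 12970, 9652 and 9748 at stage 4, against 7636, 9022 and 3748 at stage 3 (change 0.75, adjusted p = 0.498). The flavonoid markers ANR1 and DFR2 were dim, with ANR1 at 29.8, 31.8 and 44.0 at stage 4, against 44.2, 53.2 and 50.6 at stage 3. The summed signal of the 6 was 21720 to 24880 at stage 4, against 23110 to 27890 at stage 3. Most of this sum came from SCB1 and HPS, which moved in opposite directions, so it hides the lower signal of SCB1. The part of seed coat in the decreases was not tested. For 9 pod wall and leaf markers, all for vegetative storage proteins, the sum was 676 to 923 at stage 4, against 850 to 1545 at stage 3. None were called. VSPA, the brightest, had a change of -0.49 (adjusted p = 0.55) and a related probeset one of -0.68 (adjusted p = 0.32). Of 16 nodule probesets none were called and 8 had a mean under 50. The sum, 23300 to 39360 at stage 4 against 40490 to 45710 at stage 3, was carried by SPCP1, described as nodulin-26 (its brightest probeset had a change of -0.61, adjusted p = 0.206). Without the stage 4 array of pool 3 this change was -0.91 and passed (adjusted p = 0.044). NOD33 had a change of 0.57 (adjusted p = 0.425). Whether the summed signal of this list reads nodule tissue was not tested.

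In the other lists no probeset was called. For 82 glutathione S-transferases and peroxidases the median change was 0.07, for 69 probesets of the ubiquitin system 0.08, and for 38 ribosomal proteins -0.11. For 39 probesets of abscisic acid and gibberellin it was -0.01, for 26 of auxin and ethylene 0.06, and for 12 of ferritin and metal binding 0.23. The 1 probeset for galactinol and raffinose synthesis had a change of 0.33. At an unadjusted p under 0.05 these 7 lists held 31 lower and 32 higher of 267 probesets. Part of the list members were found through descriptions in the study's additional files, which name probesets that the study chose on these arrays and could be read only in part. How many members of a list changed is therefore not independent evidence of the list's direction.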

How the data were processed

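Total RNA of whole seed was hybridised to the Affymetrix soybean array, 1 array for each of 24 samples. The deposited values are intensity on a linear scale, MAS5 signals that the authors scaled to 1 trimmed mean per array. The MAS5 version is not given in the sources used here, and the study itself worked from other normalized values. Each array measured 37694 soybean probesets after 69 controls were left out.

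Signals were used as log2 without further normalization. limma 3.58.1 in R 4.3.3 was fitted to all 24 arrays with 8 group means and the 6 plant pools as a block, and variances were moderated with a trend. Replicate numbers pair the arrays, since by the methods each pool of plants supplied every weight class. In LoPro, deviations from the group means correlated at 0.128, 0.071 and 0.084 for arrays of 1 pool. For arrays of different pools the correlation averaged -0.047. Deviations within a group cancel, so the value for different pools is largely set by those for the same pool. The contrast is therefore no test of the pairing. P-values were adjusted by Benjamini-Hochberg over all probesets. Probesets were called at an adjusted p under 0.05 with at least a 1.5-fold change. The number of arrays limits the precision, and the deposited signals give no depth. The fit was tested on simulated data. Alternatives were another normalization, a floor, a filter, other models, and leaving out arrays or pools.

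Gene symbols came from the platform annotation (8677 probesets with 1 symbol, 370 with several, 28716 with none), and descriptions for 1802 probesets from the study's additional files. Named probesets are the up to 15 largest named calls in each direction with no overlap of arrays and a mean signal of at least 100, up to 4 such calls per list or else the 2 brightest members, and the 6 brightest genes. For 7 lists without calls only counts are given. The members and lists were chosen with earlier results of these data known. No sequences are shown.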

Additional observations from a re-analysis of the deposited data

How the results depend on the processing

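The direction of all 38 named probesets called in LoPro was kept under each alternative run (1 fell to the filter on dim probesets), but the number of calls was not. Without the replicate block, 13 probesets were higher and 51 lower at stage 4 in LoPro, 5 and 188 in HiPro, and 1 passed for the difference between the lines. With only the 6 arrays of the comparison 0 and 0 were called, and with the 12 LoPro arrays 2 and 8. Without a variance trend the counts were 0 and 2 in LoPro and 23 and 214 in HiPro. The methods' test gave 0 and 0 in LoPro, 0 and 0 in HiPro, and 1 and 2 for stage 3 against stage 2. A floor at the 10th percentile left 63 lower, and gave 1 for the difference between the lines. Without the fold threshold 45 were higher in LoPro, 107 in HiPro, and 3781 were higher and 3304 lower for stage 3 against stage 2. Quantile normalization (31 and 117), median centring (25 and 96) and leaving out the 30% dimmest probesets (39 and 152) stayed within 1.5 times in LoPro. Of the 38 named calls, 23 passed without the block, 36 after quantile normalization, 29 with the floor and 2 without the trend. Why the counts moved was not tested.

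Omitting 1 array or pool gave 0 to 92 higher and 1 to 209 lower in LoPro, 6 to 39 and 77 to 214 in HiPro, 0 to 3 for the difference between the lines, and 1082 to 2075 and 1209 to 2025 for stage 3 against stage 2. None of the 38 named calls passed without pool 1, 3 without pool 2 and 28 without pool 3. Of the 30 named probesets that were not called, 2 gained a call without the stage 4 array of LoPro pool 3, SCB1 (-1.18, adjusted p = 0.0208) and SPCP1 (-0.91, adjusted p = 0.044). The changes that turned sign lay near 0, in probesets that were not called. After quantile normalization the change was 0.111 for the glycinin G4 probeset, 0.057 for the second oleosin, 0.067 for PM30, 0.050 for the bright major intrinsic protein, 0.053 for PIP1-7 and 0.034 for KTI1. With 1 array or pool left out it ran over -0.879 to 1.365 for CG-BETA-1, -0.278 to 0.242 for glycinin G4, -0.226 to 0.047 for the major intrinsic protein, -0.134 to 0.122 for the second oleosin and -0.121 to 0.212 for the first, -0.292 to 0.054 for KTI1, -0.545 to 0.190 for LOX1.1, -0.641 to 0.452 for PGMPM19, -0.229 to 0.034 for PIP1-7, -0.213 to 0.038 for PM30, -0.239 to 0.001 for SACPD-C and -0.136 to 0.142 for SWEET24.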
